A study of Ovis aries with 40 samples.

Results

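The longissimus dorsi, the long muscle of the back, was compared between Texel and Ujumqin fetuses at 100 d of gestation. The comparison took the 7 arrays that the labels place at this stage, 4 from Texel (T100) and 3 from Ujumqin (U100), of 40 arrays in the series, which also holds 24 fetal arrays from 4 other stages and 9 arrays of Ujumqin lambs. Texel is a heavily muscled breed with little fat, and Ujumqin is an indigenous Chinese breed with less muscle and more fat. The fetuses were purebred, were conceived by artificial insemination after oestrus synchronisation and were collected by caesarean section. The T100 group held 3 females and 1 male, and the U100 group held 1 female and 2 males. RNA of each fetus was labelled with Cy3 and hybridised to its own Agilent sheep array of 60-base probes. The protocol gives 3 ewes per breed and stage, so that at least 2 of the 4 T100 fetuses could be litter mates. The labels name no dam, and p-values measure the spread between these fetuses, which can be smaller than that between unrelated animals.

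In sheep, muscle fibres form before birth. Myoblasts leave the cell cycle and fuse into fibres, which then fill with sarcomeres, mitochondria and membranes. New membrane takes cholesterol and fatty acids, which a cell makes from acetyl-CoA through the sterol and fatty acid pathways or takes up from lipoproteins. INSIG1 sits in the endoplasmic reticulum, holds back the transcription factors that switch both pathways on, and is itself one of their targets.

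Values below are log2 of the quantile-normalised signal, so that 1 unit is a 2-fold change, and a difference is the T100 mean minus the U100 mean of 1 probe. A probe was called when the limma moderated test gave an unadjusted p below 0.05 and the means differed by 2-fold or more. Of 14385 probes tested, 207 were called, which is 1.44%, with 114 higher and 93 lower in T100, and the groups did not overlap at 144 of the 207. An unadjusted p below 0.05 alone was reached by 13.2% of probes, 5.58% higher and 7.64% lower in T100, and the groups did not overlap at 12.8%. After Benjamini-Hochberg adjustment over all probes, 2 of the 207, or 0.0139% of those tested, were below 0.05. Genes were named for 1769 probes, covering 1185 symbols, and 83 of these probes were called, 38 higher and 45 lower. Among 1504 probes named by the array files 21 were called, or 1.40%, a share close to that of all probes. Among 265 probes named through the study's lists 62 were called, or 23.4%, but those lists hold probes that the study selected on these animals, and the share is not independent evidence. The median difference over all probes was -0.03. When each array was scaled to its 75th percentile instead of by quantiles, 277 probes were called and 81.9% of them were higher in T100, against 55.1% here.

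The 7 arrays had median signals of 409 to 484 and between 88.0% and 90.7% of probes well above background, and no spot was saturated. The Y-linked USP9Y and the X-inactivation RNA XIST followed the sex label on all 7 arrays. Skeletal muscle markers, among them ACTN3, TNNC2, MB and MYOD1, were above background on every array for 12 of 12 probes, and their summed linear signal was 1120000 to 1190000 in T100 and 1110000 to 1150000 in U100. Arrays shared slides unevenly. T100 replicates 2, 3 and 4 lay on 1 slide with U100 replicate 1. T100 replicate 1 lay on a slide without U100 arrays, and U100 replicates 2 and 3 on a slide without T100 arrays. A difference within the shared slide, or with slide as a block, thus rests on U100 replicate 1 alone for Ujumqin. U100 replicate 1 correlated with U100 replicates 2 and 3 at 0.9866 and 0.9877 and with T100 replicate 3 at 0.9903. Without it, 158 probes (1.1%) instead of 2 passed the adjusted threshold with 2-fold, 132 of them (0.918%) higher in T100, and 41 of the 158 carried a gene name. No slide then held both breeds, so that breed and slide cannot be told apart in that fit. T100 replicate 4 was the array least like the others, with correlations of 0.9800 to 0.9857.

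Only 2 named probes reached an adjusted p below 0.05 together with a 2-fold difference, and both had tight groups. No probe did so with sex as a covariate, with the unequal-variance test of the methods, or without T100 replicate 2 or U100 replicate 2. EIF2S2, the beta subunit of the initiation factor that brings the first tRNA to the ribosome, read 10.31, 10.60, 10.73 and 10.69 in T100 and 8.54, 8.59 and 8.71 in U100. Every T100 array lay above every U100 array, by 3.93-fold on average (difference 1.97 ± 0.13 SE, adjusted p = 0.0126). A probe named TCRG1, for a T-cell receptor gamma cluster, went the other way. It read 8.17, 8.0, 8.07 and 7.57 in T100 and 10.05, 9.97 and 10.17 in U100 (difference -2.11 ± 0.16 SE, adjusted p = 0.0170). The study's lists name this probe at another stage and leave it unnamed at 100 d, so that the gene is less certain than the value. Within the 1 slide that held both breeds, with 1 U100 array, the differences were 2.14 for EIF2S2 and -2.17 for TCRG1. With sex as a covariate they were 2.02 (adjusted p = 0.0955) and -2.05 (adjusted p = 0.149). The first 30 of the 60 bases of each probe are shown because they identify what was measured; the array files give both as expressed sequence tags.
EIF2S2: tatgaacgattttaaagaagcaccgcctta
TCRG1: tctgaattatttaggggtgaggtgtcatta

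Genes of sterol synthesis were mostly lower in T100, and 1 gene was higher. Of 10 probes for 8 genes, 9 were lower in T100 at an unadjusted p below 0.05, where 7.64% of all probes were, and 1 was higher. The median difference of the 10 probes was -0.94 against -0.03 over all probes. All 4 probes whose names come from the array files, for TM7SF2 and SQLE, were lower at that threshold, with a median of -0.73. The other 6 were named through the study's lists, which hold probes selected on these animals. The list itself was also chosen with earlier results of these data known. Neither the count of 9 nor that of 4 is therefore independent evidence. INSIG1 was the clearest member. It read 8.84, 8.86, 8.79 and 9.05 in T100 and 10.74, 9.98 and 10.54 in U100, without overlap (difference -1.54 ± 0.19 SE, adjusted p = 0.0862). Without U100 replicate 1 the difference was -1.38, with an adjusted p of 0.0284. In that fit no slide held both breeds, and without T100 replicate 2 or U100 replicate 2 no probe passed the adjusted threshold. The same limits apply to each adjusted p without U100 replicate 1 given below.

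The enzymes that act on squalene and lanosterol had lower means throughout. SQLE, which oxidises squalene, was lower at both its probes, by 0.87 and 0.67 log2 units, with some overlap between breeds. LSS closes the ring to lanosterol. Its T100 arrays read 10.10, 10.23, 9.91 and 9.92 and its U100 arrays 11.39, 10.72 and 11.34 (difference -1.11 ± 0.19 SE, adjusted p = 0.148). CYP51, which removes a methyl group from lanosterol, read 11.16, 12.02, 12.14 and 12.10 against 13.05, 12.68 and 12.87 (difference -1.01 ± 0.25 SE, adjusted p = 0.238). The next reductase, TM7SF2, was lower at both probes, by 0.74 and 0.72, and the breeds did not overlap at either. Both TM7SF2 probes and both SQLE probes stayed under the 2-fold limit and were not called. ACAT2, a thiolase at the start of the pathway, was lower by 1.08 (U100 5.41 to 5.60, T100 3.62 to 4.95), and RDH11, a retinol dehydrogenase placed on the same list, by 1.12 at a signal close to background.

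IDI1 was the exception. It isomerises isopentenyl diphosphate, an early building block of sterols, and read 10.18, 10.29, 10.18 and 9.27 in T100 against 8.68, 7.33 and 7.67 in U100. The lowest T100 array stood above the highest U100 array, and the mean was 4.25-fold higher in T100 (difference 2.09 ± 0.37 SE, adjusted p = 0.156). Its difference had the opposite sign to those of the 9 other probes on the list. Under the 22 alternative settings INSIG1 and IDI1 were called every time, while the list's median stayed between -1.0 and -0.71. The count of probes lower at an unadjusted p below 0.05 was 5 of 10 with slide as a block and 6 of 10 with the unequal-variance test of the methods.

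**Figure D1:**
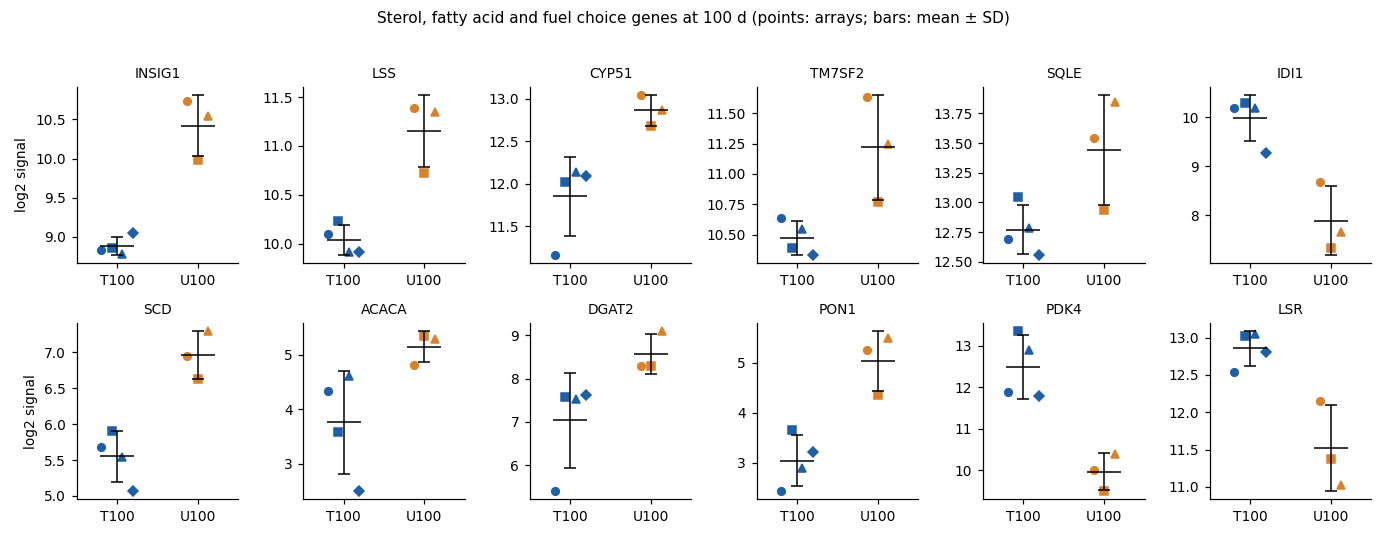
Log2 signal of 12 genes of sterol, fatty acid and fuel metabolism on the 4 T100 arrays (blue) and the 3 U100 arrays (orange); symbols mark replicate numbers and bars the mean ± SD. The means of the first 5 panels are lower in T100, with overlap for SQLE, the IDI1 mean is higher, and PDK4 differs by 2.51.

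Fatty acid genes had calls in both directions. The list held 34 probes for 23 genes with a median of 0.09. In T100 3 probes were called higher and 6 lower, beside 0.792% and 0.647% of all probes. Of the 6, 3 carry names from the array files, and the 3 higher ones were named through the study's lists. The 9 calls fell to 5 without T100 replicate 2, without U100 replicate 3 or with sex as a covariate, and to 4 with slide as a block or the normexp correction. SCD, the desaturase that makes oleic acid, had 2 probes at very different signal, and both gave nearly the same difference. The dimmer probe read 5.68, 5.90, 5.55 and 5.07 in T100 and 6.95, 6.63 and 7.30 in U100 (difference -1.41 ± 0.23 SE, adjusted p = 0.148). The brighter probe read 12.08, 12.44, 11.93 and 11.83 against 13.53, 12.85 and 13.76 (difference -1.31 ± 0.25 SE, adjusted p = 0.165). The breeds were apart at both.

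ACACA makes malonyl-CoA, the building block of fatty acids. It differed by -1.39 and -1.08 at its probes, which were dim: the first was above background on 3 of 4 T100 arrays, and with the normexp background correction the differences were -0.20 and -0.20. ACLY, which supplies the acetyl-CoA, differed by -0.88 with overlap between the breeds (adjusted p = 0.353). DGAT2, the last step to triglyceride, read 5.41, 7.57, 7.53 and 7.63 in T100 against 8.29, 8.30 and 9.10 in U100. The first T100 array was far below the others, and within the shared slide the DGAT2 difference was -0.71 instead of -1.53. PON1, an esterase carried on high-density lipoprotein, was lower by 2.00 (U100 5.26, 4.36 and 5.49, T100 2.43 to 3.64), and 1 of 4 T100 arrays was above background. With the normexp correction the PON1 difference was -0.24. FASN, the fatty acid synthase, differed by -0.06, and the lipid droplet and triglyceride genes DGAT1 (0.10 and 0.05), PLIN1 (0.58 and 0.46) and PLIN2 (0.30 and 0.36) did not reach an unadjusted p below 0.05 either.

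The 3 probes called higher were for LSR, APOA1 and APOC2. LSR, a receptor that takes up lipoproteins, read 12.55, 13.02, 13.05 and 12.81 in T100 and 12.15, 11.38 and 11.03 in U100. All 4 T100 arrays were higher than the 3 U100 arrays (difference 1.34 ± 0.27 SE, adjusted p = 0.194). Without U100 replicate 1, where no slide held both breeds, the adjusted p was 0.0230. APOA1, the main protein of high-density lipoprotein, was higher by 1.12 at a probe named through the study's lists, but its other probe differed by -0.19 (adjusted p = 0.674). APOC2, which activates lipoprotein lipase, was higher by 1.5 with overlap. LPL, the lipase itself, differed by -0.12 and -0.23 and did not reach an unadjusted p below 0.05. CD36, a fatty acid transporter, was higher by 0.75, and CPT1B, which admits fatty acids to muscle mitochondria, by 0.24 and 0.17 at its probes, all under 2-fold.

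None of 6 probes for the adipocyte markers FABP4, LEP, PLIN1 and PPARG passed an unadjusted p of 0.05, their median difference was 0.18, and all 6 were above background on every array. Their summed linear signal was 4130 to 5210 in T100 and 3920 to 4060 in U100. Because whole muscle was extracted, fewer cells of a type and less RNA per cell cannot be told apart.

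Genes that set the choice of fuel included 1 of the largest differences. PDK4 switches off pyruvate dehydrogenase and so spares glucose. It read 11.88, 13.35, 12.90 and 11.79 in T100 and 10.01, 9.50 and 10.40 in U100. The T100 mean was 5.70-fold higher, without overlap (difference 2.51 ± 0.43 SE, adjusted p = 0.148), and PDK4 was called under all 22 alternatives. FBP2, the muscle fructose bisphosphatase, was higher by 1.14 (T100 11.41 to 12.10, U100 10.11 to 11.12, adjusted p = 0.228). Of the 33 probes for 20 genes on this list 2 were called, PDK4 and FBP2, beside 1.44% of all probes. Both were named through the study's lists, and the median of the 33 was 0.15. UCP3, a mitochondrial carrier that tracks fatty acid use, gave 1.28 and 1.37 at its probes and did not reach an unadjusted p below 0.05 at either. Small differences went both ways: ENO3, the muscle enolase, by 0.53 at 1 of 3 probes with p below 0.05, PFKM by 0.32 and 0.42, and PYGL, a glycogen phosphorylase, by -0.61 and -0.73.

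Several genes of thiol and redox metabolism were higher in T100. The list held 15 probes for 11 genes; 4 probes were called, all higher, against 0.792% of all probes, and 3 of the 4 names come from the study's lists. TXNRD1 reduces thioredoxin. It read 4.72, 5.00, 5.03 and 5.00 in T100 and was not well above background on any U100 array (3.05, 2.71 and 1.80). The T100 mean was 3.26-fold above a reference level. That level was the lowest signal counted as well above background on each U100 array, or the probe's own signal if higher. It is a lenient cutoff, so that 3.26-fold is not a strict lower limit. The fitted difference was 2.42 ± 0.28 SE with an adjusted p of 0.0862.

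GCLC, the catalytic subunit that limits glutathione synthesis, had the same pattern at a lower level. It read 4.56, 4.24, 4.21 and 4.13 in T100 and was not well above background in U100. Its T100 mean was 1.95-fold above the same kind of reference level (adjusted p of the fitted difference = 0.112). GSTA1 joins glutathione to toxic products and had 2 probes on 1 expressed sequence tag. The first read 7.72, 8.06, 7.87 and 7.83 against 6.45, 7.14 and 6.37 (difference 1.21 ± 0.20 SE, adjusted p = 0.148), and the second differed by 0.60 ± 0.16 SE, also without overlap. NDOR1, a flavin reductase used in iron-sulphur cluster assembly, read 14.21, 14.50, 14.53 and 14.39 against 13.44, 13.30 and 13.48 (difference 1.00 ± 0.12 SE, adjusted p = 0.0862). SOD2, the mitochondrial superoxide dismutase, went slightly the other way, by -0.40 and -0.29, and the TXN probes differed by -0.01 and 0.10. With the normexp correction, which adds a constant that shrinks dim probes, TXNRD1 differed by 0.25, GCLC by 0.14 and the first GSTA1 probe by 0.67, NDOR1 fell just under 2-fold, and none of the 15 probes was called.

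A few genes of ribosome assembly and translation were called higher. MAK16, needed for large ribosomal subunits, read 4.70, 5.46, 4.99 and 5.64 in T100 and was not well above background on the U100 arrays. Its T100 mean was 3.69-fold above the reference level described for TXNRD1 (adjusted p of the fitted difference = 0.0862). NOP10, part of the particles that modify ribosomal RNA, read 9.05, 8.18, 8.69 and 8.72 against 6.54, 7.27 and 6.85 (difference 1.77 ± 0.24 SE, adjusted p = 0.0985). With EIF2S2 and the kinase EIF2AK2 these made 4 called higher among 43 probes for 26 genes of translation, beside 0.792% of all probes. All 4 were named through the study's lists. The list's median was 0.05, and RPL39 was called lower, at -1.07 with overlap. Among the 37 probes with names from the array files none was called.

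**Figure D2:**
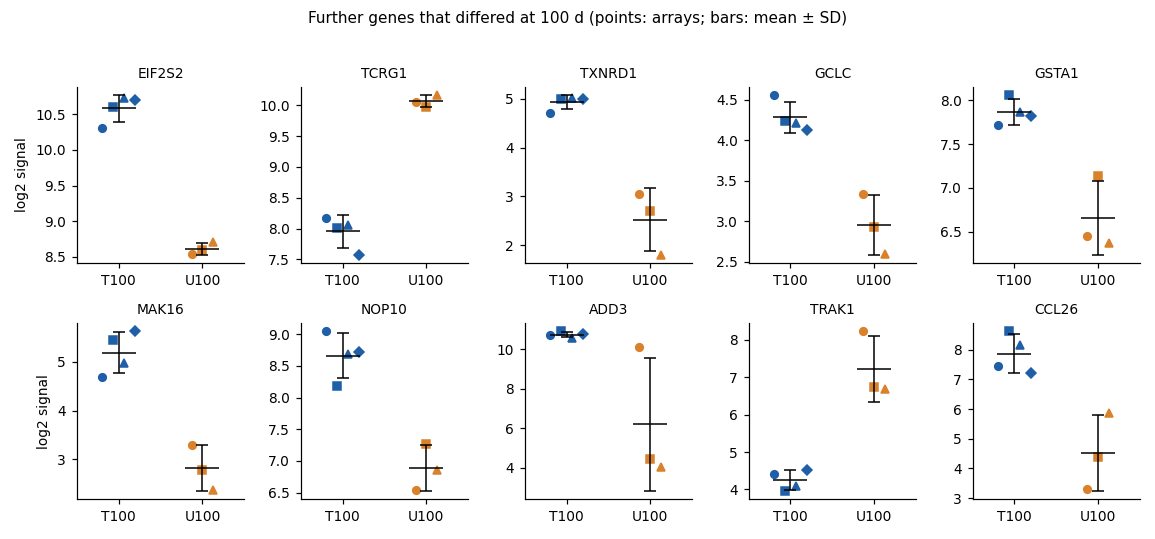
Log2 signal of 10 genes on the 4 T100 arrays (blue) and the 3 U100 arrays (orange), with the mean ± SD as bars; symbols mark replicate numbers. EIF2S2 and TCRG1 have the tightest groups, and in the ADD3 panel U100 replicate 1 reads 10.11 beside 4.43 and 4.05 for the other U100 arrays.

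The widest difference among the 14385 probes was in the major histocompatibility complex (MHC), the genes that present peptides to T cells and that vary most between individuals. OVAR-DQB1, a class II beta chain, read 12.02, 13.82, 12.49 and 14.68 in T100 and 7.51, 4.10 and 7.21 in U100. All T100 arrays lay above all U100 arrays, by 6.98 ± 0.97 SE on the log2 scale (adjusted p = 0.0985). Without U100 replicate 1, where no slide held both breeds, the adjusted p was 0.0330. A second probe for a DQ beta chain, named HLA-DQB1, went the other way. It read 10.49, 7.91, 9.40 and 7.59 in T100 and 10.22, 11.07 and 11.19 in U100, with overlap at T100 replicate 1 (difference -1.98 ± 0.70 SE, adjusted p = 0.318). A DQ alpha chain probe, DQA1, gave 9.32, 1.34, 4.80 and 1.41 against 7.78, 7.81 and 9.77. In T100 it was well above background on 2 of 4 arrays, and its difference of -4.23 ± 1.90 SE did not reach an unadjusted p below 0.05 (adjusted p = 0.391). T100 replicates 2 and 4, which had the highest OVAR-DQB1 signals, had the lowest signals at both other DQ probes. The first 30 bases of the 3 probes show that they do not share sequence; the best 30-base match between the DQ beta probes had 14 identical bases.
OVAR-DQB1: gggaagcacattgagaccattacctggtta
HLA-DQB1: ttgagatggtgttgctcttctataatgcgt
DQA1: aatccaccaatgaccctatactaatatatc

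Over all MHC probes T100 was mostly higher, but with wide scatter. By name or description 26 probes were for MHC genes. Of these, 23 had a higher mean in T100, where 45.5% of all probes did, and the median difference was 1.09. Calls numbered 3, beside 1.44% of all probes. T100 replicate 4 was the highest of the 7 arrays at 23 of the 26, and without it the median was 0.26 and 1 probe was called, as it was without U100 replicate 3 or with sex as a covariate. The probes are not independent, since several bind near-identical sequence. Within the class I probes, 5 share a 30-base window, printed here with the 5 positions at which any of them differ in capitals, because their readings differed more than their sequences. Each is named by its order in this list.
class I probe 1: ttgcttcATGtgcactGagtaatgatgtCt
class I probe 2: ttgcttcGTAtgcactGagtaatgatgtCt
class I probe 3: ttgcttcATAtgcactTagtaatgatgtCt
class I probe 4: ttgcttcATAtgcactGagtaatgatgtGt
class I probe 5: ttgcttcACAtgcactGagtaatgatgtCt

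Probes 2 to 5 each matched probe 1 at 28 of 30 bases. Probe 1 read 14.06, 15.70, 13.28 and 17.12 in T100 and 11.50, 14.12 and 10.32 in U100, with overlap (difference 3.06 ± 1.15 SE, adjusted p = 0.336). Probe 4 read 15.90, 15.22, 15.50 and 17.67 against 14.63, 15.15 and 14.81 and differed by 1.21 ± 0.56 SE (adjusted p = 0.398). Probes 2, 3 and 5 differed by 0.84, 2.03 and 1.19 and were not called. The window covers 30 of 60 bases, the sequences of these animals' own MHC genes were not measured, and the part that mismatches to a probe have in its signal was not tested.

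**Figure D3:**
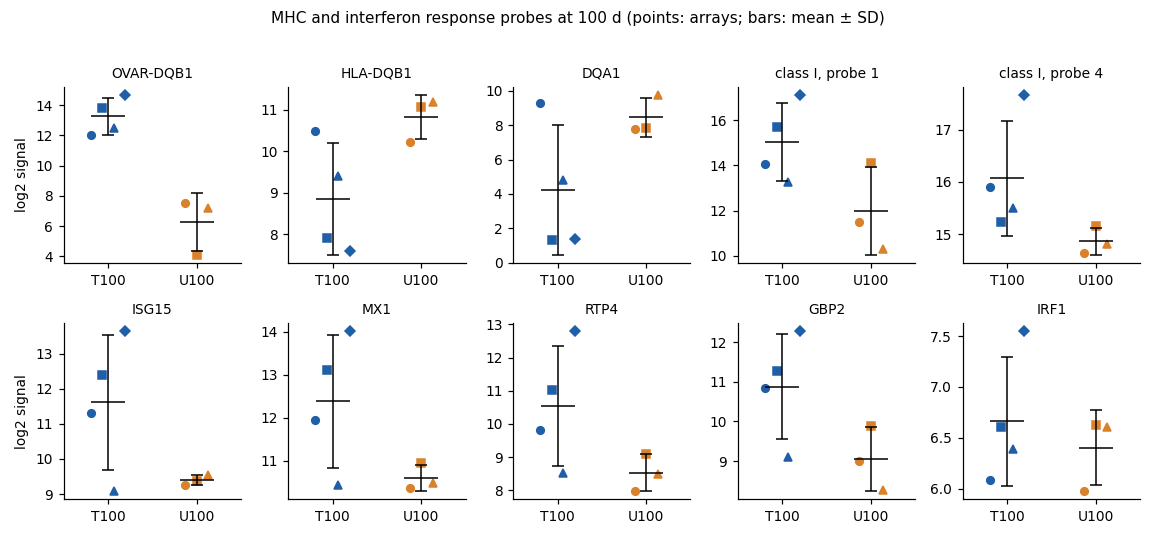
Log2 signal of 5 MHC probes and 5 interferon response probes on the 4 T100 arrays (blue) and the 3 U100 arrays (orange), with the mean ± SD as bars; symbols mark replicate numbers. OVAR-DQB1 separates the breeds, and ISG15, MX1 and RTP4 are high in T100 replicates 2 and 4 (square and diamond) and close to U100 in T100 replicate 3 (triangle).

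Interferon response genes had a higher mean in T100 for 17 of 22 probes, where 45.5% of all probes did, with wide scatter among the T100 arrays. ISG15, a ubiquitin-like protein that interferon induces, read 11.31, 12.40, 9.08 and 13.65 in T100 and 9.25, 9.37 and 9.54 in U100. T100 replicate 3 lay below all U100 arrays, and the difference of 2.22 ± 0.95 SE was not called (adjusted p = 0.377). MX1, an antiviral GTPase, read 11.95, 13.11, 10.45 and 14.01 against 10.38, 10.95 and 10.49 (difference 1.77 ± 0.77 SE, adjusted p = 0.379). RTP4 gave 2.01 and 2.06 at its probes and OAS1 1.77, with adjusted p from 0.397 to 0.408. GBP2, a guanylate-binding protein, was called at both probes, with differences of 1.82 and 1.17, and EIF2AK2, the kinase that senses double-stranded RNA, at 1.14. The smallest p of the list was at an IFNG probe, with a difference of 0.64, under 2-fold (limma unadjusted p = 0.00459). The other IFNG probe differed by 0.80 (limma unadjusted p = 0.405). In all, 3 of 22 probes for 16 genes were called, all 3 named through the study's lists, beside 1.44% of all probes. The count was 9 without T100 replicate 3, 1 without T100 replicate 4 or U100 replicate 3, and 0 without T100 replicate 2 or U100 replicate 1. The median was 0.72, and it was 0.40 without T100 replicate 4 and 1.00 without T100 replicate 3. Leukocyte markers were measured beside these: CD14 was higher by 0.37 and 0.34 (adjusted p = 0.281 and 0.317), CD4 was not above background on any of the 7 arrays, and the summed linear signal of the 6 leukocyte probes was 967 to 2180 in T100 and 847 to 1070 in U100. Their part in the interferon and MHC differences was not tested.

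Other immune genes gave isolated calls. CCL26, a chemokine that attracts eosinophils, read 7.44, 8.63, 8.16 and 7.21 in T100 and 3.30, 4.40 and 5.86 in U100, a 10.1-fold higher mean without overlap (difference 3.34 ± 0.61 SE, adjusted p = 0.164). IL13, a cytokine of the same allergic response, was lower by 1.22 (T100 3.15 to 4.30, U100 4.78 to 5.21). They were the only 2 called of 53 probes for 33 cytokine and receptor genes, beside 1.44% of all probes. The median of the 53 was close to 0. A beta-defensin, DEFB, read 7.14, 8.08, 10.26 and 6.46 in T100 and 11.55, 10.82 and 10.05 in U100. T100 replicate 3 overlapped U100, and the difference was -2.82 ± 0.87 SE (adjusted p = 0.285). The other antimicrobial genes were not called, although the median over 12 probes was 1.12; cathelicidins such as CATHL3 (difference 1.41 ± 1.19 SE) had 1 high array, T100 replicate 4 at 15.68 against 10.25 to 11.46 on the other T100 arrays. A kappa light chain, LOC100037688, was called at 1 of its 5 probes (1.06) and gave 0.15 to 0.72 at the others. Over 110 probes described as immunoglobulin or T-cell receptor, 2 were called, both higher, a share close to the 1.44% of all probes. The median was 0.23, and 0.09 without T100 replicate 4. Without U100 replicate 1 or 2 the calls numbered 6 and 5.

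Several genes with large differences belonged to no shared list. ADD3, gamma adducin of the membrane skeleton, read 10.71, 10.94, 10.60 and 10.76 in T100 and 10.11, 4.43 and 4.05 in U100. The U100 arrays fell apart into 1 near the T100 level and 2 far below it, so that the difference of 4.55 ± 1.36 SE (adjusted p = 0.279) described none of them. It was 6.51 without U100 replicate 1 and 0.66 within the slide that held that array. TRAK1, an adaptor that moves mitochondria along microtubules, read 4.42, 3.95, 4.08 and 4.51 in T100 and 8.24, 6.74 and 6.69 in U100. T100 lay far below U100 on every array (difference -2.98 ± 0.38 SE, adjusted p = 0.0925). Without U100 replicate 1, where no slide held both breeds, the adjusted p was 0.0134. QDPR, which recycles the cofactor of aromatic amino acid hydroxylases, read 12.67, 13.03, 13.01 and 12.78 against 14.44, 14.12 and 14.22 (difference -1.39 ± 0.14 SE, adjusted p = 0.0754).

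STMN2, a microtubule protein of growing nerve fibres, read 7.58, 7.99, 7.09 and 8.24 in T100 and 10.92, 8.87 and 9.69 in U100 (difference -2.10 ± 0.49 SE, adjusted p = 0.222). The neural and glial list held 14 probes for 7 genes with a median of -0.08. Of these, 2 were called, both lower and both named through the study's lists, beside 0.647% of all probes called lower. The second was GRM8, a glutamate receptor, at 4.82, 4.44, 4.30 and 4.36 against 5.64, 5.46 and 5.39 (difference -1.01 ± 0.15 SE, adjusted p = 0.112, and a difference of -0.24 with normexp). A probe named MGLUR8, another name of this receptor, differed by -0.35 and was not called. GFAP, the glial filament, differed by 0.12 and 0.04 and did not pass. S100A11, a calcium-binding protein, was lower by 2.99 with T100 replicate 3 at 6.66 and the other T100 arrays at 3.14 to 3.45, against 6.63 to 7.74 in U100. SCGB1D2, a secretoglobin, was lower by 2.50 with overlap, and EAAT1, a glutamate transporter, was called at 1 probe (-2.35, well above background on 1 of 7 arrays) and not at the other (-0.33). An ACTB probe was called lower at -1.04, but it read 3.03 to 5.12, far below the level usual for beta-actin. HBB, the haemoglobin beta chain, was higher by 1.28 at 1 probe and by 0.20 at the other, which was the brighter. Globin genes are near-identical copies, and the 2 probes may not read the same one.

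Receptors and growth regulators contributed a few calls. TSHR, the thyrotropin receptor, read 4.50, 1.71, 1.42 and 3.26 in T100 and 4.42, 5.49 and 4.95 in U100, with overlap (difference -2.23 ± 0.74 SE, adjusted p = 0.308). The TSHR readings of 1.71 and 1.42 were below 2.03, the lowest signal counted as well above background on any of the 7 arrays. POMC, the precursor of corticotropin, was lower by 1.06 and 0.98 at its probes. LEF1, a transcription factor of Wnt signalling, was lower at both probes, by 1.14 and 1.08, and neither pair of groups overlapped; the first probe read 5.36, 4.45, 5.31 and 5.29 against 6.29, 6.27 and 6.18. TNC, a matrix protein of tendon and growing muscle, read 5.31, 5.89, 6.0 and 5.47 against 6.75, 7.06 and 7.04 (difference -1.29 ± 0.19 SE, adjusted p = 0.112). The study's quantitative PCR of TNC at this stage had the opposite direction, with a higher level in Texel. Its results for LEF1, INSIG1, TXNRD1 and ACTB had the same direction as the array. CD200, a surface protein that restrains myeloid cells, was higher by 1.28 (adjusted p = 0.261).

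Of 24 probes for 17 genes of the sarcomere and contraction 1 was called, the dim ACTB probe, beside 1.44% of all probes. The median of the 24 was 0.03. At an unadjusted p below 0.05, 2 of the 24 were higher and 4 lower in T100, beside 5.58% and 7.64% of all probes. ACTN3, the alpha-actinin of fast fibres, read 15.01, 15.51, 14.99 and 15.32 in T100 and 13.54, 14.84 and 14.24 in U100. The groups were apart, but the difference of 0.997 ± 0.301 SE fell just short of 2-fold (adjusted p = 0.280). TMOD4, which caps thin filaments, was higher by 0.61, and MB, the oxygen store of slow fibres, lower by 0.40 and 0.44, each without overlap. Among 21 probes for 12 myogenic regulators the 2 LEF1 probes alone were called, beside 1.44% of all probes. MYOG, which drives fusion, was lower by 0.49 and 0.60 (adjusted p = 0.327 and 0.337). MYOD1 differed by -0.16 and -0.29 and did not reach an unadjusted p below 0.05. In all, 6 of the 21 were lower at that threshold and none was higher, the other lower ones being SMAD2 (-0.25) and 1 SMAD3 probe (-0.29). The count of 6 was 3 without T100 replicate 3, without T100 replicate 4 or with slide as a block, and 2 without U100 replicate 2. Neither LEF1 probe was called without T100 replicate 2, with 75th percentile scaling or with the normexp correction. The 27 probes of the insulin-like growth factor and growth hormone axis gave no call at a median of -0.01. Cell cycle genes had a median of -0.26, and 6 of 16 probes, among them CDK1, CDK4 and AURKB, were lower at an unadjusted p below 0.05, where 7.64% of all probes were; CENPP was the only 1 past 2-fold. The 6 became 3 without U100 replicate 1, 2 without T100 replicate 1, T100 replicate 4 or U100 replicate 3, with sex as a covariate or with 75th percentile scaling, and 1 with slide as a block or in the fit over 10 groups.

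**Figure D4:**
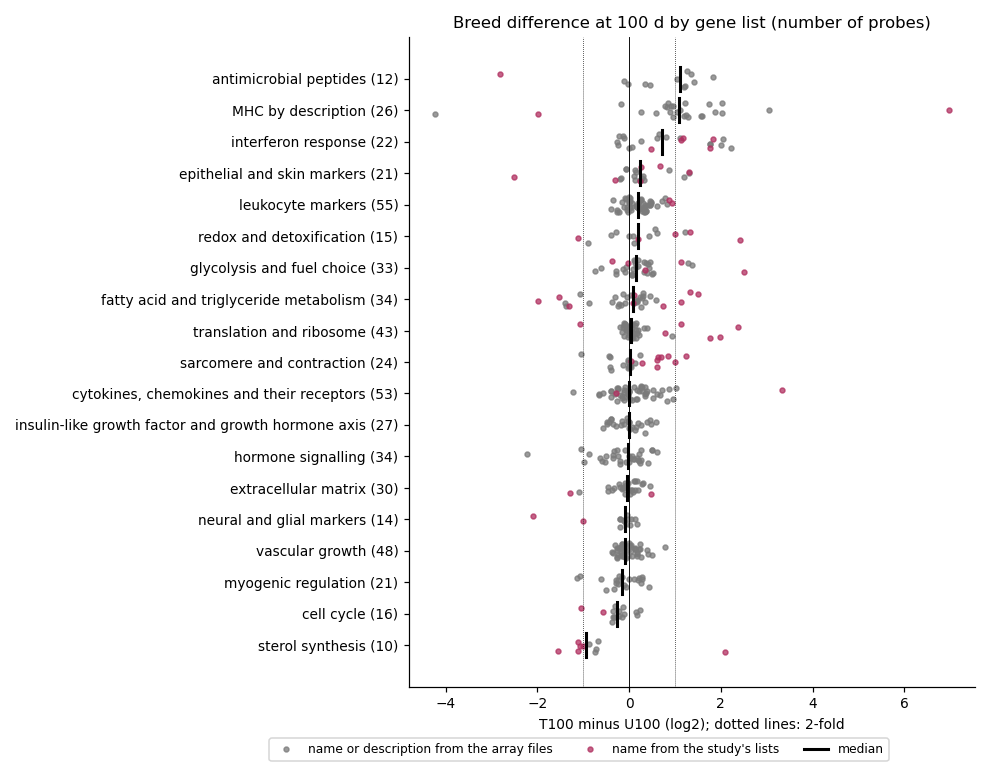
T100 minus U100 difference (log2) of every probe on 19 gene lists, ordered by list median (black bar); dotted lines mark 2-fold, grey points carry names or descriptions from the array files and red points names from the study's lists. Sterol synthesis has the lowest median, -0.94, with IDI1 alone on its right, and most lists centre near 0.

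The breed difference at 100 d was set against the mean breed difference of the other 4 stages (70, 85, 120 and 135 d) in 1 fit over all 31 fetal arrays. The sexes were unevenly spread: at 120 d the 3 Texel fetuses were male and the 3 Ujumqin female, so that breed and sex cannot be told apart there, and at 135 d 2 of 3 Texel were male and the 3 Ujumqin female. No probe of 14385 passed an adjusted p of 0.05 with limma, while 638 had an unadjusted p below 0.05, or 4.44%, and 147 of these, 1.02% of all, differed by 2-fold. Of the 10 sterol probes 4 were lower and 1 was higher in this contrast at an unadjusted p below 0.05. The lists and genes were chosen with earlier results of these data known, and many names come from the study's lists. A larger difference at 100 d is partly built in by that choice, and the p-values of this contrast do not allow for it. INSIG1 had the smallest p among the named genes. Its breed difference was 0.15, 0.17, -1.54, -0.19 and -0.19 from 70 to 135 d (contrast -1.52 ± 0.31 SE, unadjusted p = 6.18e-05, adjusted p = 0.280). With sex as a covariate no probe passed the adjusted threshold, and the INSIG1 contrast was -1.30 ± 0.32 SE (unadjusted p = 0.000504, adjusted p = 0.681). Both SCD probes behaved alike: the dimmer one gave 0.06, -0.18, -1.41, 0.02 and -0.26 (unadjusted p = 0.000484). IDI1 gave 0.78, 0.33, 2.09, -1.38 and 0.06. PDK4, at -0.77, -0.14, 2.51, 1.66 and -0.05, was high at 100 and 120 d.

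Other genes had a difference of the same sign at every stage. EIF2S2 was higher in Texel by 1.04, 1.13, 1.97, 1.75 and 1.81, and TCRG1 lower by 1.63, 1.60, 2.11, 1.71 and 0.65. OVAR-DQB1 was higher by 3.85, 3.84, 6.98, 10.44 and 7.65, and ADD3 by 6.37, 3.94, 4.55, 3.56 and 2.33. For OVAR-DQB1 and ADD3 the contrast of 100 d with the other stages was within its error (0.54 ± 2.56 SE and 0.50 ± 1.85 SE). A further set changed sides. TRAK1 gave 0.02, -0.63, -2.98, 4.53 and 3.17 (contrast -4.76 ± 1.66 SE, unadjusted p = 0.00873), HLA-DQB1 0.42, 1.21, -1.98, 1.95 and 0.82 (unadjusted p = 0.000788), and DQA1 0.11, 1.91, -4.23, 3.28 and 2.96 (unadjusted p = 0.00141).

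**Figure D5:**
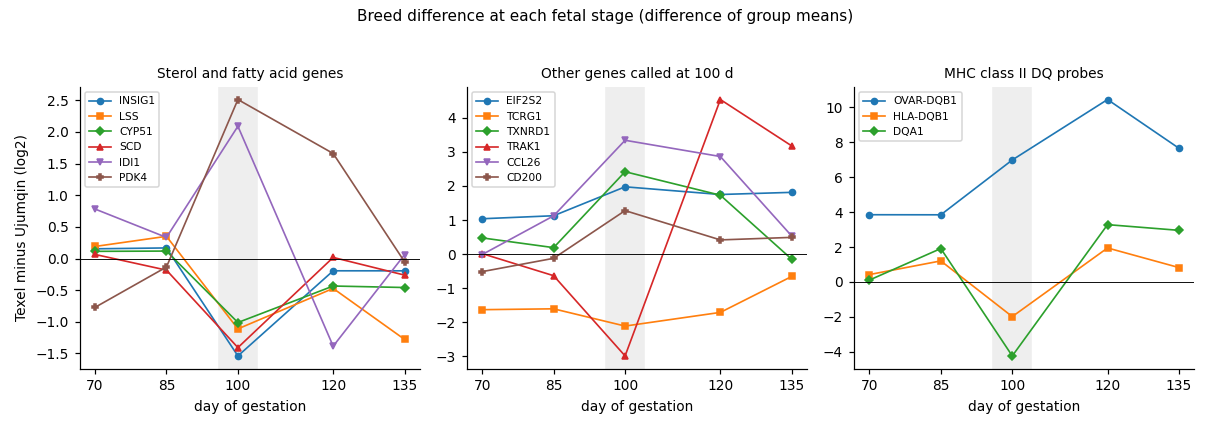
Breed difference of group means (Texel minus Ujumqin, log2) by day of gestation, from 70 to 135, for 15 probes in 3 panels; the grey band marks 100 d and the axes of the panels differ. INSIG1, SCD and CYP51 dip at 100 d, EIF2S2 and OVAR-DQB1 stay above 0 at every stage, and TRAK1, HLA-DQB1 and DQA1 lie below 0 at 100 d and above 0 at 120 and 135 d.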

How the data were processed

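Fetal longissimus dorsi RNA was hybridised to 1-colour Agilent sheep arrays. The deposited scanner files hold spot intensity from Agilent Feature Extraction 10.5 (the submitters' processing notes), background-subtracted by that program. Per the labels, the authors also deposited a table of normalised log2 values, used here as an alternative. The authors' methods normalise by quantiles. Here, outlier spots were left out, the spots of a probe were averaged, intensities were quantile-normalised over 31 fetal arrays, floored at 1 and taken to log2, and a probe was kept if any of these 31 arrays had it well above background. T100 and U100 were compared with limma 3.58.1 in R 4.3.3, with Benjamini-Hochberg adjustment. The script was tested on simulated data. Alternatives changed scaling, background, filter, floor, test, covariates and arrays. The number of arrays limits the precision.

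Probe names came from the array files, updated through RefSeq, or from the gene names of the study's lists. No genome of the probes' build was used and no position is given. The members and the 23 lists were chosen with earlier results of these data known. The text names genes listed by the study at 100 d, probes past the adjusted threshold, up to 15 non-overlapping called probes per direction, up to 4 members per list by p, and other probes of those genes. Sterol, fatty acid, redox and MHC members with an unadjusted p below 0.05 and cell type markers are also named. MHC and immunoglobulin probes were gathered by name or description after their values were seen, as were UCP3, PFKM, TXN, GFAP and MYOD1. Named outside this rule are, among others, ISG15, MX1, RTP4, OAS1, FASN, LPL, DGAT1, PLIN2, SMAD2 and SMAD3. Some genes are not reported here and were left out of the named counts and lists.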

Additional observations from a re-analysis of the deposited data

Results flagged for a closer look

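Among the 4 T100 arrays, 1 array stood far from the other 3 at 13 of 107 probes, namely the 83 called named probes and the MHC probes; chance gives such a gap for about 1 in 20 groups. T100 replicate 4 was the array in 5 of the 13. It was the highest at 4 MHC probes, with 15.75 at an OVAR class I probe and 8.78, 13 and 14.61 at the DRB1, DQA2 and DR-alpha probes, where the next array read 12.83, 4.99, 9.55 and 10.85. It was the lowest for IDI1, at 9.27 below 10.18. T100 replicate 3, the only male of its group, was the highest for S100A11 at 6.66, POMC at 9.61 and TBC1D5 at 9.39, and the lowest for HBB at 14.32. T100 replicate 1 was the lowest for DGAT2 at 5.41, CYP51 at 11.16 and TXNRD1 at 4.72, and T100 replicate 2 for LEF1 at 4.45.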

How the results depend on the processing

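Of 83 named probes called at 100 d, 11 were called in every one of the 22 alternatives (CCL26, EIF2S2, IDI1, INSIG1, NOP10, OVAR-DQB1, PDK4, QDPR, SFT2D1, TCRG1 and 1 SCD probe). Over 1821 recomputed values 1457 kept their direction and threshold, 364 fell short of it and none reversed. The sterol probes kept a negative median under all 22. Probes at an adjusted p below 0.05 with 2-fold, 2 here, numbered 1 with a floor of 16, 0 with the methods' unequal-variance test or sex as a covariate, 6 with an intensity trend, 7 with slide as a block, 15 in a fit over 10 groups and 17 with array weights; those with names, also 2, numbered 1, 0, 0, 4, 2, 7 and 13 in that order. Probes called, 207 here, were 58 with normexp, 115 with the floor, 104 with the methods' test and 377 with weights; with names, 83 here, they were 29 with normexp. In the contrast with other stages, 0 here, 1 probe passed with the floor and 51 with weights.

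Leaving out 1 array gave 0 to 158 adjusted probes, 0 to 41 with names, 172 to 443 called, 71 to 133 called with names and 0 to 3 in the contrast. Each maximum came without U100 replicate 1, where no slide held both breeds. Without T100 replicate 2 or U100 replicate 2 no probe passed the adjusted threshold. With the replicate block, 0 probes passed it (limma; 219 called), and same-numbered arrays did not deviate together (correlations -0.19, -0.09 and 0.06). The causes were not tested. The array files give no count or depth per probe; signal over background limits dim probes such as TXNRD1, GCLC, MAK16 and ACACA, whose differences normexp reduced to between -0.20 and 0.34.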
